A study of Mus musculus with 8 samples.

Results

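Wnt ligands, their receptors and their antagonists were followed in 8 RNA sequencing libraries of polyadenylated RNA, made from cell lines of mouse lung adenocarcinoma. The members were the rows of the deposited gene table whose symbol is Wnt, Fzd, Sfrp, Dkk or Rspo followed by digits and at most 1 letter, together with named co-receptors, R-spondin receptors, ligases, intracellular components and nuclear factors of the pathway. This rule used no measured value and gave 60 of the 23224 genes listed. They comprised 19 ligands, 10 Frizzled receptors, 2 co-receptors (Lrp5 and Lrp6), 2 alternative receptors (Ror1 and Ror2), 4 R-spondins, 3 R-spondin receptors (Lgr4, Lgr5 and Lgr6), 2 receptor-removing ligases (Rnf43 and Znrf3), 9 secreted antagonists, 5 intracellular components (Ctnnb1, Axin1, Axin2, Nkd1 and Nkd2) and 4 TCF/LEF factors.

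The libraries fall into 4 groups of 2, all labelled with the genotype KrasG12/+;Trp53-/- and grown in DMEM with 10% serum. Tmet lines derive from a metastatic primary tumour, and neither a virus nor an shRNA is named for them. The other groups are Tnonmet cells, from a primary tumour without metastasis, infected with retroviruses or lentiviruses that carry shRNAs. The triple knockdown received shRNAs against Nkx2-1, Foxa2 and Cdx2, the shNkx2-1 group an shRNA against Nkx2-1, and the shControl group an shRNA against luciferase. Of the 3 targets, Nkx2-1 specifies lung epithelium, Foxa2 is a forkhead protein active in gut and lung endoderm, and Cdx2 specifies intestinal epithelium. The labels do not say whether duplicates were separate cultures or how many lines or clones were used, so the p-values rest on a spread between libraries that may be technical. Tmet also differs from the Tnonmet groups in its tumour of origin, and the tumour of origin and the levels of the 3 factors cannot be told apart in that comparison.

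Wnt proteins are secreted lipid-modified ligands that bind a Frizzled receptor together with the co-receptor Lrp5 or Lrp6. In the canonical branch this stops a complex built on Axin from marking beta-catenin (Ctnnb1) for destruction, and beta-catenin then enters the nucleus and activates genes with TCF/LEF factors. Other branches run through receptors such as Ror2 and do not need beta-catenin. R-spondins, bound by Lgr4, Lgr5 or Lgr6, keep the ligases Rnf43 and Znrf3 from removing Frizzled receptors. Some Dkk proteins can block the co-receptors, and Sfrp and Wif1 proteins bind the ligands. In the lung, Wnt7b is a ligand of the developing airway epithelium, and canonical Wnt signals maintain progenitor cells of the airways and alveoli.

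Each library held between 14496995 and 21044835 estimated counts, and levels are given as CPM, a gene's count relative to the library's total after TMM scaling. At this depth, 3 counts correspond to 0.151 to 0.2 CPM, which is taken as the floor. Nkx2-1 had 0.219 and 0.353 CPM in Tmet, 38.1 and 34 CPM in the triple knockdown, 37.7 and 44.8 CPM in shNkx2-1 and 76.4 and 68 CPM in shControl. Foxa2 averaged 1.28 CPM in Tmet, 31.2 CPM in the triple knockdown, 45.4 CPM in shNkx2-1 and 56.0 CPM in shControl. Cdx2 averaged 0.368 CPM in Tmet, 8.10 CPM in the triple knockdown, 181 CPM in shNkx2-1 and 105 CPM in shControl. All 3 factors were thus reduced but still present in the triple knockdown, and Cdx2 was higher in shNkx2-1 than in shControl (log2 change 0.79 ± 0.15, SE; adjusted p = 0.0328). The call of Nkx2-1 in shNkx2-1 against shControl (-0.81 ± 0.15, adjusted p = 0.0318) was lost in 6 of 8 leave-one-out fits, each of which drops 1 library, and that of Cdx2 in 4 of them. In the triple knockdown against shControl all 3 were called, and the call of Foxa2 (-0.84 ± 0.15, adjusted p = 0.00519) was lost without triple knockdown replicate 2 (adjusted p = 0.0578). The Tmet duplicates differed more than the others, with a chi-square per gene between duplicates of 60.0 in Tmet, 8.60 in the triple knockdown, 12.8 in shNkx2-1 and 8.36 in shControl. Among 8 epithelial markers, Krt8 and Krt18 were abundant in every library, and Epcam stayed at or below 0.676 CPM in all of them. The surfactant genes Sftpa1 and Sftpd, which mark alveolar type 2 cells, had no counts in any library, and Sftpc did not exceed 0.201 CPM. Abca3, another marker of these cells, was present, with 84.4 and 58.2 CPM in Tmet, 169 and 171 CPM in the triple knockdown and 256 and 243 CPM in shControl. In bulk RNA, fewer cells that express a gene and less RNA per cell cannot be told apart.

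Of the 60 members, 33 passed the filter on low counts and were tested and 27 did not. The 27 never exceeded 20 estimated counts in a library, a value reached by Lgr5 in 1 triple knockdown library. No counts were found in any library for 8 of them: the ligands Wnt1, Wnt3, Wnt3a and Wnt9b, the receptor Fzd10, the R-spondin Rspo4, the antagonist Wif1 and the nuclear factor Lef1. The filter itself favoured members that were high in 1 group: 22 members were over its minimum of 0.581 CPM in both libraries of all 4 groups, while 6 passed through Tmet alone (Wnt2, Wnt5a, Wnt10a, Wnt10b, Ror2 and Dkk3) and 1 through shNkx2-1 alone (Sfrp4). These 7 entered the test because they were high in 1 group. Their own calls and p-values, and counts and medians over the tested members, are given as a description and support nothing further.

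Calls are adjusted p-values under 0.05 in edgeR's quasi-likelihood test, adjusted over all 13318 tested genes. In the triple knockdown against shControl, 6 members rose and 7 fell, 39.4% of the 33, where 24.4% of all tested genes were called (12.0% higher and 12.4% lower). Against shNkx2-1, the triple knockdown had 6 members higher and 6 lower, 36.4%, where 20.4% of all genes were called (9.27% higher and 11.1% lower). Tmet against shControl gave 16 members higher and 8 lower, 72.7%, where 57.3% of all genes were called (29.2% higher and 28.1% lower). All 6 members that passed the filter through Tmet alone are among those 16. Tmet against the triple knockdown gave 14 members higher and 11 lower, 75.8%, where 48.1% of all genes were called (24.0% higher and 24.1% lower). The medians over the 33 members include the 7 that the filter admitted through 1 group, so the medians without them, a choice made after seeing the data, stand beside them. The median log2 change in Tmet against shControl was 0.81 over the 33 members and 0.39 over the other 26, where that of all tested genes was 0.024, or -0.009 over the 12412 genes left by the same exclusion. In the triple knockdown against shControl it was 0.08 over both sets of members and 0.004 over all tested genes. The median size of the change between Tmet and the triple knockdown, whatever its sign, was 1.52 on the log2 scale over the 33 members and 1.09 over the 26, where those of all genes were 0.53 and 0.49. Of the 26, 10 were higher and 7 lower in Tmet than in shControl, 65.4%, where 56.3% of the 12412 genes were called. The 6 members that passed through Tmet alone are also among the 14 called higher in Tmet than in the triple knockdown. Of the 26, 8 were higher and 11 lower in that comparison, 73.1%, where 46.7% of the 12412 genes were called. Its median log2 change was 0.40 over the 33 members and -0.04 over the 26. The comparisons of Tmet and the triple knockdown with shControl share their control libraries.

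No member was called in shNkx2-1 against shControl by edgeR's quasi-likelihood test, where 3.55% of all genes were called (2.17% higher and 1.38% lower). At an unadjusted p under 0.05 there were 7 members (Wnt7a, Wnt7b, Fzd2, Fzd3, Znrf3, Dkk2 and Sfrp4), 21.2% of the 33, where 18.8% of all tested genes reached it. DESeq2 called 2 members, Wnt7a and Fzd3, 6.06% of the 33 where it called 6.82% of all genes, and limma-voom called 0. With only the 4 libraries of the 2 groups in the fit, 4 of 26 tested members were called higher in shNkx2-1 (Wnt7a, Wnt7b, Znrf3 and Sfrp4), 15.4%, where 14.3% of all genes were called. These shares of members are near those of all genes.

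**Figure D1:**
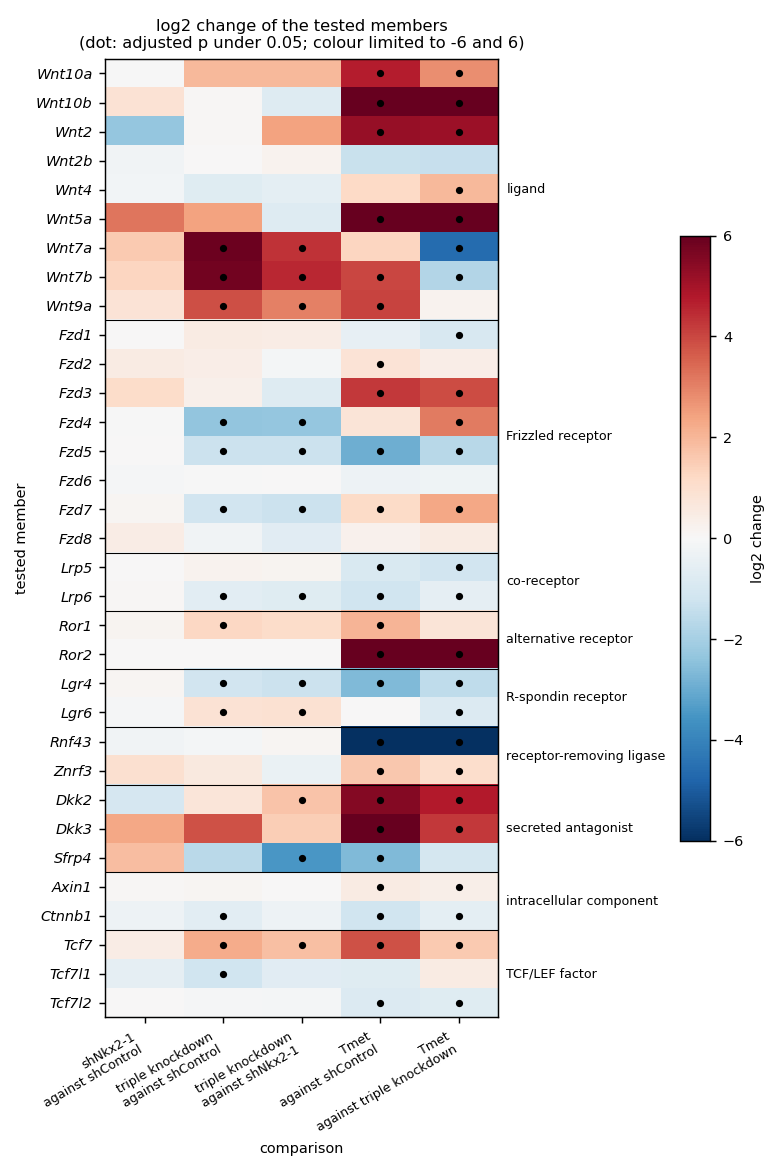
log2 change of the 33 tested members (rows, grouped by role) in the 5 comparisons (columns), with red for higher and blue for lower in the group named first (colour limited to -6 and 6), and a dot where the adjusted p is under 0.05. The column for shNkx2-1 against shControl holds no dot. Of the 9 tested ligands 3 hold a red dot in the triple knockdown against shControl, where 12.0% of all tested genes were called higher. In Tmet against shControl 6 do, where 29.2% of all tested genes were called higher. Among these 6, Wnt2, Wnt5a, Wnt10a and Wnt10b passed the filter on low counts through Tmet alone.

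The ligands Wnt7a and Wnt7b were low in shControl and were the leading Wnt transcripts of the triple knockdown. Wnt7a had 1.91 and 5.94 CPM in Tmet, 103 and 89.1 CPM in the triple knockdown, 5.47 and 4.11 CPM in shNkx2-1 and 1.53 and 1.70 CPM in shControl. Both triple knockdown libraries stood far above every other library, and none of the others exceeded 5.94 CPM. The triple knockdown value was 5.88 ± 0.47 log2 units above shControl (adjusted p = 1.72e-04) and 4.32 ± 0.42 above shNkx2-1 (adjusted p = 4.70e-04). Tmet was lower than the triple knockdown (log2 change -4.60 ± 0.42, adjusted p = 9.26e-05), at -4.01 without Tmet replicate 1 and -5.64 without Tmet replicate 2. The changes of 1.28 ± 0.49 in Tmet (adjusted p = 0.0523) and 1.55 ± 0.48 in shNkx2-1 (adjusted p = 0.134) against shControl were not called, although neither group overlapped shControl. The Tmet value of Wnt7a passed with DESeq2, with upper-quartile factors, without a filter on low counts and without Tmet replicate 1. In shNkx2-1, Wnt7a passed with DESeq2, with only the 4 libraries compared, and in the 3 fits that left out 1 or both Tmet libraries.

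Wnt7b had 67.5 and 23.1 CPM in Tmet, 144 and 162 CPM in the triple knockdown, 7.84 and 5.52 CPM in shNkx2-1 and 2.20 and 3.25 CPM in shControl. The groups did not overlap, and the order was the triple knockdown, Tmet, shNkx2-1 and shControl. It rose in the triple knockdown by 5.79 ± 0.54 against shControl (adjusted p = 3.13e-04) and by 4.52 ± 0.50 against shNkx2-1 (adjusted p = 8.49e-04). In Tmet it rose by 4.03 ± 0.52 against shControl (adjusted p = 3.80e-04), or by 3.05 without Tmet replicate 1. Tmet was lower than the triple knockdown (log2 change -1.76 ± 0.43, adjusted p = 0.0109), a difference that was no longer called without triple knockdown replicate 2 (adjusted p = 0.0551) and that was -2.73 without Tmet replicate 1. The shNkx2-1 value of 1.27 ± 0.54 was not called against shControl (adjusted p = 0.255). Exons of Wnt7b share 324 bases with AU022754 on the opposite strand, and since no source used here gives the strand setting of the counting, reads from the 2 genes there cannot be told apart.

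Several ligands at or near 0 counts in the Tnonmet groups were present in Tmet. Wnt10b and Wnt5a passed the filter through Tmet alone, so their p-values are a description only. Wnt10b had 6.34 and 14.4 CPM in Tmet, 0 and 0.0641 CPM in the triple knockdown, 0 and 0.113 CPM in shNkx2-1 and 0 and 0.0516 CPM in shControl. Outside Tmet this was at most 2 counts in a library. Its level in Tmet over shControl was a ratio of 362 (95% exact counting interval 64.7 to 14344, adjusted p = 1.78e-04) and that of Tmet to the triple knockdown 339 (60.5 to 13433, adjusted p = 2.73e-04). The fitted log2 change of Wnt10b against shControl, 8.17, was 7.45 without Tmet replicate 2 or shControl replicate 1 and 10.46 without shControl replicate 2, and that against the triple knockdown, 8.08, was 7.37 without Tmet replicate 2, 7.18 without triple knockdown replicate 1 and 10.51 without its replicate 2. Wnt5a, best known as a ligand of the branch that does not need beta-catenin, had 10.3 and 6.30 CPM in Tmet, 0.0603 and 0 CPM in the triple knockdown, 0.121 and 0 CPM in shNkx2-1 and no counts in shControl. It was at least 46.7-fold higher in Tmet than in shControl, taking the floor of 3 counts per library for shControl (adjusted p = 2.23e-04), and 264-fold higher than in the triple knockdown (47.1 to 10466, adjusted p = 4.06e-04). The fitted log2 change of Wnt5a between Tmet and the triple knockdown, 7.76, was 10.17 without triple knockdown replicate 1 and 6.93 without its replicate 2. Exons of Wnt5a share 358 bases with Gm2670 on the opposite strand.

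The remaining ligands were low, and Wnt2 and Wnt10a passed the filter through Tmet alone. Wnt9a averaged 3.40 ± 0.826 CPM in Tmet, 2.96 ± 0.436 CPM in the triple knockdown, 0.358 ± 0.267 CPM in shNkx2-1 and 0.181 ± 0.255 CPM in shControl (SD, n = 2 each). It was higher than in shControl in both Tmet (log2 change 4.05 ± 0.78, adjusted p = 0.00292) and the triple knockdown (3.85 ± 0.79, adjusted p = 0.0105), and these 2 groups overlapped (0.20 ± 0.58, adjusted p = 0.797). With 0 counts in shControl replicate 1, the size of these changes rests on shControl replicate 2: in Tmet the change was 3.19 without replicate 1 and 8.86 without replicate 2, and in the triple knockdown it was 3.0 and 8.66. The call in the triple knockdown was lost without triple knockdown replicate 2 (adjusted p = 0.0606), and the rise of Wnt9a over shNkx2-1 (3.04 ± 0.73, adjusted p = 0.0226) was lost without any 1 of the 4 libraries compared, and was 4.07 without shNkx2-1 replicate 1 and 2.42 without its replicate 2.

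Wnt2 averaged 1.34 ± 0.664 CPM in Tmet, 0.0301 ± 0.0426 CPM in the triple knockdown, 0 in shNkx2-1 and 0.0258 ± 0.0365 CPM in shControl (SD, n = 2 each). It was 46.9-fold higher in Tmet than in shControl (8.05 to 1886, adjusted p = 0.00336) and 43.9-fold higher than in the triple knockdown (7.54 to 1766, adjusted p = 0.00489), in each case against 1 count in all. Its fitted log2 change against shControl, 5.23, ran from 4.51 without shControl replicate 1 to 7.52 without shControl replicate 2, and was 4.6 without Tmet replicate 2. Against the triple knockdown the fitted change of Wnt2, 5.15, ran from 4.32 without triple knockdown replicate 2 to 7.56 without its replicate 1, and was 4.52 without Tmet replicate 2. Wnt10a, a relative of Wnt10b, averaged 1.72 ± 1.12 CPM in Tmet, 0.247 ± 0.0771 CPM in the triple knockdown, 0.0585 ± 0.00313 CPM in shNkx2-1 and 0.0667 ± 0.0943 CPM in shControl. It was 30.2-fold higher in Tmet than in shControl (8.04 to 254, adjusted p = 0.0031), and the fitted log2 change, 4.72, was 3.82 without Tmet replicate 2, 7.93 without shControl replicate 1 and 3.60 without shControl replicate 2. Wnt10a was higher in Tmet than in the triple knockdown by 2.77 ± 0.74 (adjusted p = 0.0158), a call lost on leaving out either triple knockdown library or without Tmet replicate 2, where the change was 1.87. Wnt4 had 0.929 and 4.38 CPM in Tmet and averaged 0.682 ± 0.0583 CPM in the triple knockdown, 1.03 ± 0.179 CPM in shNkx2-1 and 1.14 ± 0.205 CPM in shControl. Its call against the triple knockdown (1.96 ± 0.69, adjusted p = 0.0465) rests on Tmet replicate 2, without which the change was 0.44, and was 2.67 without Tmet replicate 1. It was lost in 7 of the 8 leave-one-out fits, including the 4 that left out 1 shControl or shNkx2-1 library. Wnt2b, below 1.3 CPM in all libraries, was called in no comparison.

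**Figure D2:**
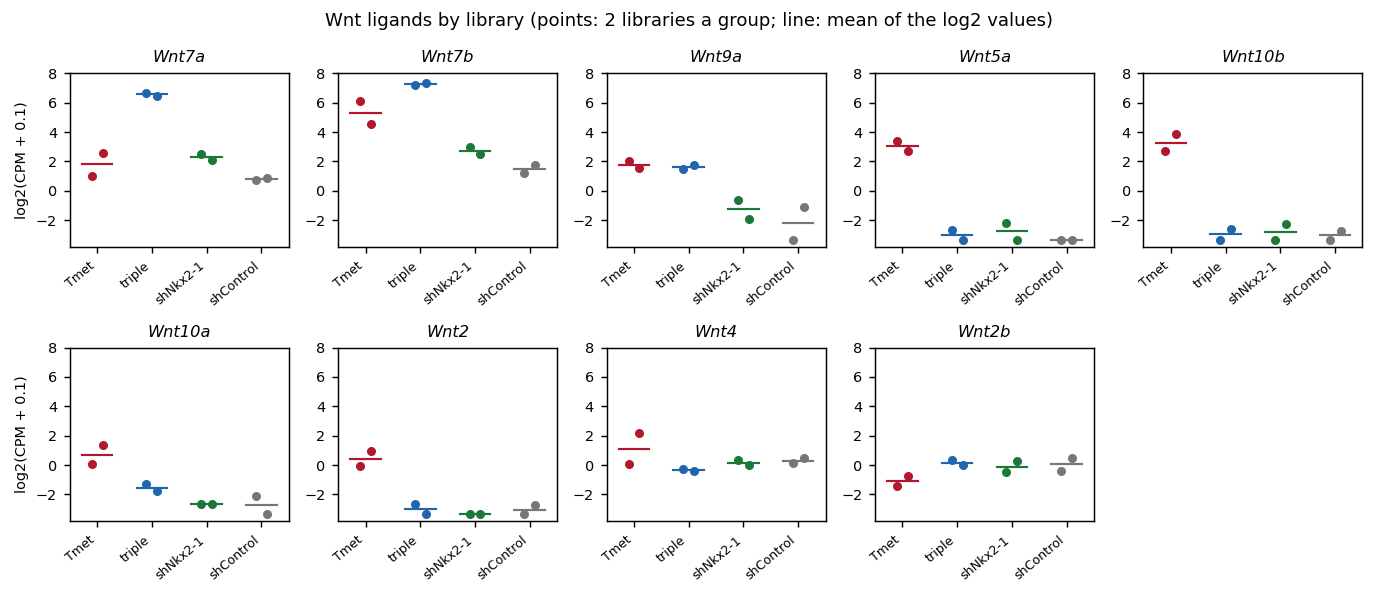
Levels of the 9 tested ligands as log2(CPM + 0.1) in each library (points, 2 a group) with the group mean of the log2 values (line), from Tmet at the left to shControl at the right. Wnt7a and Wnt7b stand highest in the triple knockdown, at 89.1 to 162 CPM, whereas Wnt5a, Wnt10b, Wnt2 and Wnt10a stand highest in Tmet.

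Levels of different genes were compared per length, as CPM per kilobase of exon, with exon lengths from GENCODE M21. Summed over the 19 ligands, this came to 20.0 and 15.7 CPM per kilobase in Tmet, 63.4 and 62.6 in the triple knockdown, 4.02 and 3.13 in shNkx2-1 and 1.47 and 2.00 in shControl. Wnt7a made up 51.3% and 44.8% of the sum in the triple knockdown libraries and Wnt7b 46.4% and 52.8%. In Tmet the sum was spread over more ligands, and its libraries differed: Wnt7b held 68.8% and 30.1%, Wnt10b 9.31% and 27.0%, Wnt7a 3.01% and 11.9%, and Wnt5a 6.58% and 5.14%. In shControl the small sum was led by Wnt7a, Wnt7b, Wnt4 and Wnt2b.

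The promoter of Wnt7a is printed because it belongs to the ligand with the largest rise in the triple knockdown, and those of Fzd7, Tcf7l2 and Tcf7 because they are the members with values given in full whose windows hold a motif searched for. They are RefSeq sequences of GRCm38.p6, each from 250 bases before the start to 50 bases after it, read on the gene's strand at chr6:91411304-91411603 (minus strand), chr1:59481897-59482196 (plus strand), chr19:55895071-55895370 (plus strand, 1 of 2 windows of Tcf7l2) and chr11:52282546-52282845 (minus strand, 1 of 2 windows of Tcf7), and the capitals mark the matched word.
Wnt7a: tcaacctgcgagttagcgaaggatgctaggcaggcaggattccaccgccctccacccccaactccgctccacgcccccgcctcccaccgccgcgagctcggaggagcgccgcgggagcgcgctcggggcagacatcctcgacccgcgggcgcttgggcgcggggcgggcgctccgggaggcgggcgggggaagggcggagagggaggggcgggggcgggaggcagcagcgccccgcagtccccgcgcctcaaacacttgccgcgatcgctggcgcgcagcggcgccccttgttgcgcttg
Fzd7: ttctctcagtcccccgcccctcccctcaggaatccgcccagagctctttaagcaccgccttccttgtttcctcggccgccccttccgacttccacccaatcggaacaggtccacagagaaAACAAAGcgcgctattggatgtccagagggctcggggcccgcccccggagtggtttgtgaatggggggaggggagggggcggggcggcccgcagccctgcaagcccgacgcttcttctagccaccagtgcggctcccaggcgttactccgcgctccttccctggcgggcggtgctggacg
Tcf7l2: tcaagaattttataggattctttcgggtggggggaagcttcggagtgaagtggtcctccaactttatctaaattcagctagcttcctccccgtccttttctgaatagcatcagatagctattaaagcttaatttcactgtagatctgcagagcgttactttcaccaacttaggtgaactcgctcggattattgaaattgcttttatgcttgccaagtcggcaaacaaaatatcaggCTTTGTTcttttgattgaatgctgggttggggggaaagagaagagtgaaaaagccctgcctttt
Tcf7: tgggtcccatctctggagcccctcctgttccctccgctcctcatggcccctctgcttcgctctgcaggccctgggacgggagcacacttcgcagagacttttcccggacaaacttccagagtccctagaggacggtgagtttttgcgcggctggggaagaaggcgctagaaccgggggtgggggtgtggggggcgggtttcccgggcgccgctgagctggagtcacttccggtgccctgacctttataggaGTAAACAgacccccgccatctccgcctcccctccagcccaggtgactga
The words searched on both strands were CTTTGAA or CTTTGAT or CTTTGTA or CTTTGTT for TCF/LEF factors, CACTTGA or CACTTGT for Nkx2-1, TGTTTAC for Foxa2, and TTTATGG or TTTATTG for Cdx2. No word of 1 set is contained in a word of another. Windows were found for 41 of the 60 members. A TCF/LEF word was in windows of 7 of the 41, against 18.9% of all 27025 genes with a window, an Nkx2-1 word in 2 (7.22% of all genes), a Foxa2 word in 1 (4.05%) and a Cdx2 word in 2 (8.32%). The Fzd7 window holds a TCF/LEF word on the other strand, starting 130 bases before the start site, the Tcf7l2 window one on the coding strand, 14 bases before it, and the Tcf7 window a Foxa2 word on the other strand, just after the start site. None of the words is in the Wnt7a window. A word is a description of these letters and not a binding site.

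Frizzled receptors shifted in composition. Fzd5 had 15.7 and 23.9 CPM in Tmet, 60.9 and 63.4 CPM in the triple knockdown, 163 and 143 CPM in shNkx2-1 and 162 and 141 CPM in shControl. The shNkx2-1 and shControl libraries overlapped (log2 change 0.02 ± 0.18, adjusted p = 0.984), and each further group lay lower without overlap. Fzd5 fell in the triple knockdown by 1.29 ± 0.19 on the log2 scale against shControl (adjusted p = 0.00241) and by 1.30 ± 0.19 against shNkx2-1 (adjusted p = 0.00282). In Tmet it was lower still, with changes of -2.93 ± 0.20 against shControl (adjusted p = 1.36e-05) and -1.65 ± 0.19 against the triple knockdown (adjusted p = 3.43e-04). Fzd5 shares 1233 exon bases with Gm38058 on the opposite strand.

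Fzd7 had 74.6 and 73.7 CPM in Tmet, 18.7 and 10.8 CPM in the triple knockdown, 38.4 and 32.9 CPM in shNkx2-1 and 35.7 and 30.2 CPM in shControl. Its direction in the 2 comparisons with shControl was opposite: it rose in Tmet (1.17 ± 0.23, adjusted p = 0.00318) and fell in the triple knockdown (-1.16 ± 0.24, adjusted p = 0.0106). The difference between Tmet and the triple knockdown was itself called (2.33 ± 0.24, adjusted p = 1.77e-04). The fall in the triple knockdown was lost without shControl replicate 1 (adjusted p = 0.0820), and the fall against shNkx2-1 (-1.27 ± 0.24, adjusted p = 0.00823) was lost without shNkx2-1 replicate 1 (adjusted p = 0.0558).

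Fzd3, a Frizzled known for axon guidance and planar polarity in mice, stood highest in Tmet. It had 34.2 and 33.4 CPM in Tmet, 2.71 and 1.73 CPM in the triple knockdown, 4.01 and 3.66 CPM in shNkx2-1 and 2.33 and 1.34 CPM in shControl. Tmet was higher than shControl by 4.22 ± 0.30 (adjusted p = 1.73e-05) and than the triple knockdown by 3.92 ± 0.30 (adjusted p = 3.37e-05). In shNkx2-1 the change of 1.08 ± 0.31 against shControl was not called (adjusted p = 0.107), but it passed with DESeq2 and on leaving out 1 Tmet library at a time. It did not pass without both.

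Of the remaining Frizzled genes, Fzd1, Fzd2 and Fzd4 were called in at least 1 comparison. Fzd2 had 53.1 and 43.9 CPM in Tmet, 36.5 and 36.9 CPM in the triple knockdown, 34.7 and 43.7 CPM in shNkx2-1 and 23.3 and 31.9 CPM in shControl. Its rise in Tmet against shControl (0.81 ± 0.19, adjusted p = 0.00745) was lost without shControl replicate 1 (adjusted p = 0.0704). Fzd1 had 10.3 and 9.47 CPM in Tmet, 16.2 and 22.3 CPM in the triple knockdown, 12.6 and 15.4 CPM in shNkx2-1 and 12.7 and 14.9 CPM in shControl. It was called only between Tmet and the triple knockdown (-0.96 ± 0.21, adjusted p = 0.00710), and not without triple knockdown replicate 2 (adjusted p = 0.0615). Fzd4 averaged 3.03 ± 1.51 CPM in Tmet, 0.337 ± 0.205 CPM in the triple knockdown, 1.73 ± 0.216 CPM in shNkx2-1 and 1.75 ± 0.219 CPM in shControl. Its fall in the triple knockdown (-2.35 ± 0.57 against shControl, adjusted p = 0.0204) was lost without any 1 of the 4 libraries compared, while its higher level in Tmet than in the triple knockdown was called (3.13 ± 0.55, adjusted p = 0.00251; 2.5 without Tmet replicate 1 and 3.92 without triple knockdown replicate 1). The fall of Fzd4 against shNkx2-1 (-2.32 ± 0.57, adjusted p = 0.0245) was lost in 6 of the 8 leave-one-out fits, and without triple knockdown replicate 1 the falls were -3.15 and -3.12. Fzd6, at 24.4 to 39.7 CPM, and Fzd8, at 7.96 to 17.1 CPM, were called in no comparison, and Fzd9 and Fzd10 were not tested.

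Per kilobase of exon, Fzd5 held 4.65% and 7.87% of the Frizzled sum in Tmet, 24.0% and 25.7% in the triple knockdown, 42.9% and 38.4% in shNkx2-1 and 45.8% and 42.0% in shControl. Fzd7 held 33.7% and 37.0% in Tmet, 11.3% and 6.69% in the triple knockdown, 15.4% and 13.5% in shNkx2-1 and 15.4% and 13.7% in shControl. Fzd2, at 27.2% and 28.3%, and Fzd5 led in the triple knockdown, Fzd7 and Fzd2, at 29.7% and 27.3%, in Tmet, and Fzd5 in shNkx2-1 and shControl. The sum itself was 48.8 and 43.9 CPM per kilobase in Tmet, 36.6 and 35.6 in the triple knockdown, 54.9 and 53.8 in shNkx2-1 and 51.2 and 48.5 in shControl. These shares depend on the exon lengths, since the authors' own gene models were not used here.

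**Figure D3:**
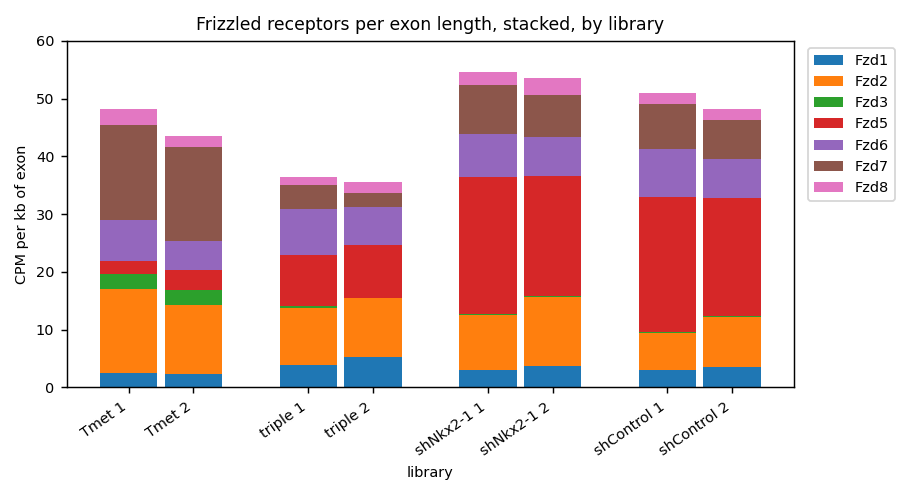
Frizzled transcripts in CPM per kilobase of exon, stacked by gene for each library from Tmet at the left to shControl at the right. Fzd5 falls to 2.27 and 3.46 CPM per kilobase in Tmet, against 23.4 and 20.4 in shControl, while Fzd7 reaches 16.5 and 16.3 in Tmet, and Fzd4, Fzd9 and Fzd10, each at or under 0.61, are not drawn.

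Both co-receptors were lower in Tmet. Lrp6 had 94.2 and 89.8 CPM in Tmet, 132 and 133 CPM in the triple knockdown, 214 and 222 CPM in shNkx2-1 and 204 and 212 CPM in shControl. Duplicates lay close together, and the triple knockdown lay between Tmet and the other groups. Against shControl, Lrp6 fell by 1.18 ± 0.09 in Tmet (adjusted p = 2.89e-05) and by 0.65 ± 0.09 in the triple knockdown (adjusted p = 0.00211), and by 0.72 ± 0.09 in the triple knockdown against shNkx2-1 (adjusted p = 0.00178). Tmet was also lower than the triple knockdown (-0.53 ± 0.09, adjusted p = 0.00253). Lrp5 had 92.5 and 76.7 CPM in Tmet, 158 and 216 CPM in the triple knockdown, 159 and 173 CPM in shNkx2-1 and 149 and 174 CPM in shControl. It fell in Tmet against shControl (-0.93 ± 0.17, adjusted p = 0.00236) and against the triple knockdown (-1.15 ± 0.17, adjusted p = 0.00120), and the triple knockdown overlapped shControl (0.22 ± 0.17, adjusted p = 0.405).

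The alternative receptors were higher in Tmet at low levels, and Ror2 passed the filter through Tmet alone. Ror2, a receptor kinase for Wnt5a, had 2.29 and 4.53 CPM in Tmet and no counts in the triple knockdown, in shNkx2-1 or in shControl. It was at least 19.2-fold higher in Tmet than in shControl (adjusted p = 0.00196) and at least 18.3-fold higher than in the triple knockdown (adjusted p = 0.00280). DESeq2 gave adjusted p-values of 0.129 and 0.148 for Ror2 in these comparisons, and the fitted log2 change of 8.90 in each was 8.29 without Tmet replicate 2. Ror1 averaged 3.92 ± 1.15 CPM in Tmet, 2.33 ± 0.0308 CPM in the triple knockdown, 1.08 ± 0.232 CPM in shNkx2-1 and 0.972 ± 0.134 CPM in shControl. Both Tmet (2.02 ± 0.36, adjusted p = 0.00184) and the triple knockdown (1.26 ± 0.36, adjusted p = 0.0392) were above shControl. The call of Ror1 in the triple knockdown was lost in 6 of the 8 leave-one-out fits, including the 2 that left out 1 shNkx2-1 library, and with DESeq2 (adjusted p = 0.0747) and limma-voom (adjusted p = 0.0507).

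Markers of fibroblasts, cells that often express Wnt5a and Ror2, were also higher in Tmet than in shControl. Of 8 fibroblast markers, 5 were tested and all 5 were higher in Tmet than in shControl, where 29.2% of all tested genes were called higher. Of these 5, Pdgfrb passed the filter on low counts through Tmet alone. Pdgfra averaged 1.61 CPM in Tmet and 2.21 CPM in the triple knockdown. The summed level of the 8 was 263 to 819 CPM in Tmet, 20.1 to 20.2 CPM in the triple knockdown, 7.60 to 9.54 CPM in shNkx2-1 and 5.33 to 5.47 CPM in shControl. Most of the Tmet sum was Col1a1, at 72.2 and 345 CPM, and Col1a2, at 163 and 453 CPM. In the same 2 libraries Wnt5a had 10.3 and 6.30 CPM and Ror2 2.29 and 4.53 CPM. Lum had no counts in any library and Thy1 at most 0.109 CPM. Over 8 epithelial markers the sum was 1437 to 2624 CPM in Tmet, 10369 to 11323 CPM in the triple knockdown, 6936 to 7483 CPM in shNkx2-1 and 8070 to 8325 CPM in shControl. Of the 6 tested epithelial markers, 4 were lower in Tmet than in shControl, where 28.1% of all tested genes were called lower. For 8 markers of alveolar type 2 cells and the lung lineage the sum was 59 to 84.9 CPM in Tmet, 206 to 208 CPM in the triple knockdown, 271 to 280 CPM in shNkx2-1 and 311 to 334 CPM in shControl. Most of this sum was Abca3, and Nkx2-1, itself a target of the shRNAs, is among the 8. Cdh1, the epithelial cadherin that binds beta-catenin at cell junctions, had 3.17 and 3.32 CPM in Tmet, 682 and 754 CPM in the triple knockdown, 749 and 918 CPM in shNkx2-1 and 945 and 1005 CPM in shControl. Leukocyte markers summed to at most 4.87 CPM and endothelial markers to at most 1.81 CPM in any library. The part of these markers in the Wnt results of Tmet was not tested.

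R-spondins were at or near 0: Rspo1, Rspo2 and Rspo3 had at most 2 counts in a library. Their receptor Lgr4 had 10.5 and 11 CPM in Tmet, 32.3 and 29.4 CPM in the triple knockdown, 75.8 and 74.2 CPM in shNkx2-1 and 82.5 and 54 CPM in shControl. Like Fzd5 and Lrp6, it was lowest in Tmet, with the triple knockdown between Tmet and the other 2 groups. It fell in the triple knockdown by 1.14 ± 0.19 against shControl (adjusted p = 0.00454) and by 1.28 ± 0.19 against shNkx2-1 (adjusted p = 0.00352), and in Tmet by 2.66 ± 0.21 against shControl (adjusted p = 2.59e-05) and by 1.52 ± 0.20 against the triple knockdown (adjusted p = 6.39e-04). Lgr6 had 32.8 and 27.1 CPM in Tmet, 46.7 and 59.9 CPM in the triple knockdown, 28 and 28.4 CPM in shNkx2-1 and 29.6 and 29.7 CPM in shControl. It was higher in the triple knockdown than in shControl (0.85 ± 0.16, adjusted p = 0.00726) and than in shNkx2-1 (0.92 ± 0.16, adjusted p = 0.00615). The first call of Lgr6 was lost in the 3 fits that left out 1 shControl library or triple knockdown replicate 2, and the second without shNkx2-1 replicate 2 or triple knockdown replicate 2. Tmet was lower in Lgr6 than the triple knockdown (-0.83 ± 0.16, adjusted p = 0.00372) and overlapped shControl (0.01 ± 0.16, adjusted p = 0.945).

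The 2 ligases that remove Frizzled receptors changed in opposite directions in Tmet. Rnf43 had 0.164 and 0.453 CPM in Tmet, which were 3 and 9 counts, 35.3 and 27.6 CPM in the triple knockdown, 27.6 and 30.2 CPM in shNkx2-1 and 36.3 and 31.7 CPM in shControl. The 3 Tnonmet groups lay between 27.6 and 36.3 CPM, and Tmet was close to the floor. Rnf43 fell in Tmet by 6.73 ± 0.32 against shControl (adjusted p = 2.16e-06) and by 6.61 ± 0.32 against the triple knockdown (adjusted p = 3.15e-06), and without Tmet replicate 2 the changes were -7.63 against shControl and -7.52 against the triple knockdown. Znrf3 had 13.8 and 21.7 CPM in Tmet, 9.70 and 7.63 CPM in the triple knockdown, 11.5 and 11 CPM in shNkx2-1 and 4.67 and 6.91 CPM in shControl. It rose in Tmet by 1.61 ± 0.29 against shControl (adjusted p = 0.00191). The higher level of Znrf3 in Tmet than in the triple knockdown (1.04 ± 0.28, adjusted p = 0.0166) was lost without triple knockdown replicate 2 (adjusted p = 0.116) and with only the 4 libraries compared (adjusted p = 0.0505). Its change of 0.95 ± 0.29 in shNkx2-1 was not called (adjusted p = 0.125), and passed in the fits without 1 or both Tmet libraries.

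**Figure D4:**
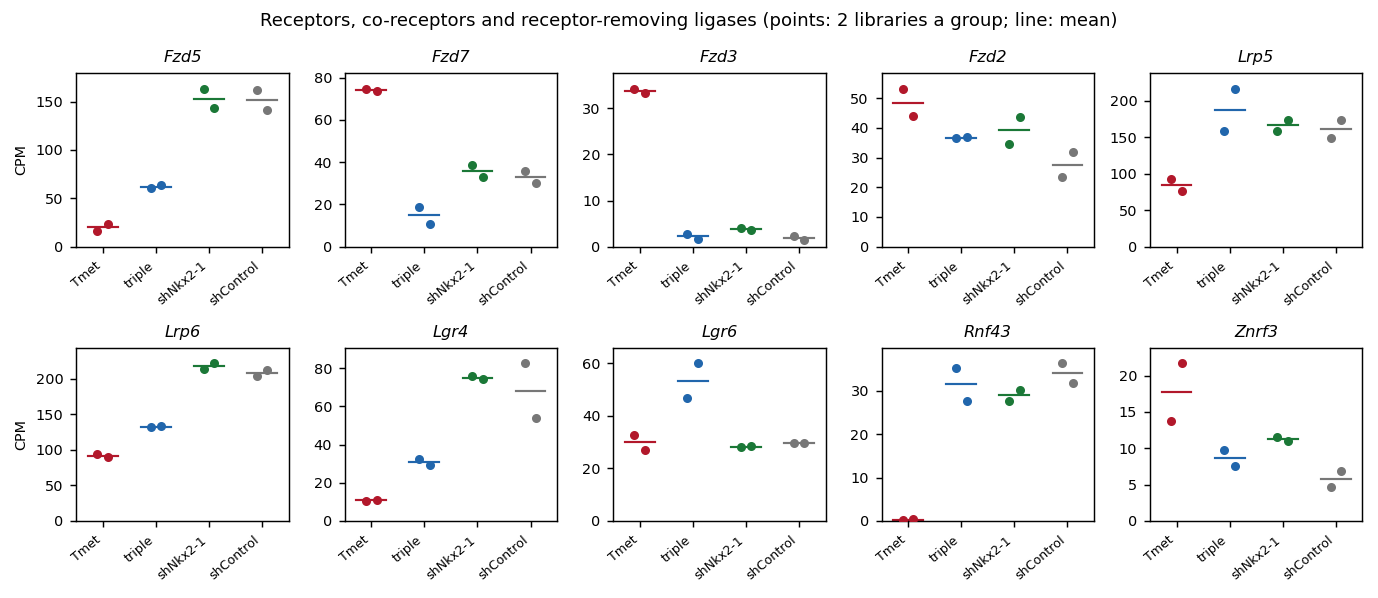
CPM of Frizzled receptors, co-receptors, R-spondin receptors and receptor-removing ligases in each library (points) with group means (lines), from Tmet at the left to shControl at the right. Fzd5, Lrp6 and Lgr4 are lowest in Tmet with the triple knockdown next, Fzd3 and Fzd7 are highest in Tmet, and Rnf43 lies at 0.164 and 0.453 CPM in Tmet only.

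Among the secreted antagonists, 3 of 9 were tested, of which Dkk3 passed the filter through Tmet alone and Sfrp4 through shNkx2-1 alone. Dkk2, which binds Lrp5 and Lrp6, had 97.6 and 78.1 CPM in Tmet, 3.92 and 2.44 CPM in the triple knockdown, 1.03 and 0.901 CPM in shNkx2-1 and 2.07 and 1.81 CPM in shControl. Its Tmet libraries were far above all others, and the 3 Tnonmet groups did not overlap one another. Tmet was higher than shControl by 5.51 ± 0.26 (adjusted p = 1.92e-06) and than the triple knockdown by 4.78 ± 0.24 (adjusted p = 3.92e-06). The triple knockdown was higher than shNkx2-1 (1.72 ± 0.31, adjusted p = 0.00668), a call lost without shNkx2-1 replicate 2 (adjusted p = 0.0668), while its change of 0.72 ± 0.27 against shControl was not called (adjusted p = 0.0956).

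Dkk3, a divergent member of the family, averaged 1.88 ± 1.74 CPM in Tmet, 0.0904 ± 0.128 CPM in the triple knockdown and 0.0282 ± 0.0398 CPM in shNkx2-1 (SD, n = 2 each). It was at least 10.6-fold higher in Tmet than in shControl, where it had no counts (adjusted p = 0.00784). Most of this came from 57 counts in Tmet replicate 1, against 13 in replicate 2, and the call against the triple knockdown (ratio 19.7, 6.47 to 97.8, adjusted p = 0.0226) was lost without Tmet replicate 1 or either triple knockdown library. The fitted log2 change of Dkk3 against shControl, 8.03, was 6.51 without Tmet replicate 1 and 8.73 without Tmet replicate 2. That against the triple knockdown, 4.23, was 2.72 and 4.96 without those Tmet libraries, 8.04 without triple knockdown replicate 1 and 3.32 without its replicate 2. Sfrp4, a decoy that binds Wnt ligands, averaged 0.0273 ± 0.0386 CPM in Tmet, 0.0622 ± 0.0027 CPM in the triple knockdown, 0.761 ± 0.0407 CPM in shNkx2-1 and 0.203 ± 0.00453 CPM in shControl. It was lower in the triple knockdown than in shNkx2-1 by a ratio of 12.2 (3.06 to 106, adjusted p = 0.0118), a call lost with DESeq2 (adjusted p = 0.0871) and without any 1 of the 4 libraries compared. Sfrp4 was lower in Tmet, at 1 count in all, than in shControl by a ratio of 7.77 whose counting interval, 0.998 to 350, includes no change. The call there (adjusted p = 0.0441) was lost with DESeq2, without a filter on low counts and in 7 of the 8 leave-one-out fits, and the fitted log2 change, -2.65, was -4.86 without Tmet replicate 1 and -1.77 without Tmet replicate 2. Dkk1, Dkk4, Sfrp1, Sfrp2, Sfrp5 and Wif1 were not tested, and none exceeded 0.542 CPM in a library.

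Ctnnb1, which encodes beta-catenin, had 671 and 639 CPM in Tmet, 897 and 1046 CPM in the triple knockdown, 1059 and 1364 CPM in shNkx2-1 and 1530 and 1497 CPM in shControl. The groups did not overlap, and shControl was highest. It fell in Tmet by 1.21 ± 0.14 against shControl (adjusted p = 2.39e-04) and by 0.57 ± 0.14 against the triple knockdown (adjusted p = 0.0118), the second of which was lost without triple knockdown replicate 2 (adjusted p = 0.0919). The fall in the triple knockdown against shControl (-0.64 ± 0.14, adjusted p = 0.0141) was lost in 3 fits, those that left out 1 shControl library or triple knockdown replicate 1. Ctnnb1 shares 759 exon bases with Ulk4 on the opposite strand. Axin1, a scaffold of the complex that degrades beta-catenin, had 95.1 and 113 CPM in Tmet, 82.7 and 79.2 CPM in the triple knockdown, 82.4 and 75.1 CPM in shNkx2-1 and 72 and 76.1 CPM in shControl. Its rise of 0.49 ± 0.12 in Tmet against shControl (adjusted p = 0.00928) was lost without shControl replicate 1 (adjusted p = 0.0779). The call of Axin1 in Tmet against the triple knockdown (0.36 ± 0.12, adjusted p = 0.0390) was lost in 7 of the 8 leave-one-out fits.

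Several genes that beta-catenin is known to switch on as feedback, Axin2, Lef1, Nkd1 and Lgr5, were too low to test in these lines. They do not stand for all Wnt targets. Of 16 tested genes often reported as Wnt targets, 7 rose and 5 fell in Tmet against shControl. Of all tested genes, 57.3% were called there (29.2% higher and 28.1% lower). Among tested members, Rnf43 changed there by -6.73, Znrf3 by 1.61 and Tcf7 by 3.81 on the log2 scale. Axin2 had 0.109 and 0.504 CPM in Tmet, 0.0603 and 0 CPM in the triple knockdown, and no counts in shNkx2-1 or shControl. That is 2 and 10 counts in Tmet, which did not pass the filter.

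Of the TCF/LEF factors, Tcf7 had 15.1 and 11.3 CPM in Tmet, 5.67 and 3.20 CPM in the triple knockdown, 1.46 and 1.07 CPM in shNkx2-1 and 1 and 0.877 CPM in shControl. The groups did not overlap, and Tmet was highest, followed by the triple knockdown. Against shControl, Tcf7 rose by 3.81 ± 0.37 in Tmet (adjusted p = 8.77e-05) and by 2.24 ± 0.38 in the triple knockdown (adjusted p = 0.00447). Tmet was higher than the triple knockdown by 1.57 ± 0.32 (adjusted p = 0.00481). The rise over shNkx2-1 in the triple knockdown (1.81 ± 0.36, adjusted p = 0.0109) was lost without shNkx2-1 replicate 2 or triple knockdown replicate 1 (adjusted p = 0.103 and 0.0782).

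Tcf7l2, the TCF factor of many epithelia, had 27.6 and 25.6 CPM in Tmet, 42.7 and 45.6 CPM in the triple knockdown, 48.2 and 47.6 CPM in shNkx2-1 and 44.5 and 49.7 CPM in shControl. It fell in Tmet by 0.82 ± 0.12 against shControl (adjusted p = 7.68e-04) and by 0.73 ± 0.12 against the triple knockdown (adjusted p = 0.00199). Tcf7l1, known mainly as a repressor, had 8.52 and 8.81 CPM in Tmet, 4.04 and 8.52 CPM in the triple knockdown, 9.05 and 10.9 CPM in shNkx2-1 and 14.2 and 14.4 CPM in shControl. Its fall in the triple knockdown against shControl (-1.19 ± 0.31, adjusted p = 0.0286) was lost in 5 of the 8 leave-one-out fits, including the 4 that left out 1 shControl or shNkx2-1 library, and was -1.82 without triple knockdown replicate 2. Tcf7l1 shares 179 exon bases with Gm15401 on the opposite strand. Per kilobase of exon, Tcf7 led the 4 factors in Tmet, at 5.03, with Tcf7l2 at 3.03 and Tcf7l1 at 2.21. In shControl Tcf7l2 led, at 5.37, with Tcf7l1 at 3.64 and Tcf7 at 0.358.

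**Figure D5:**
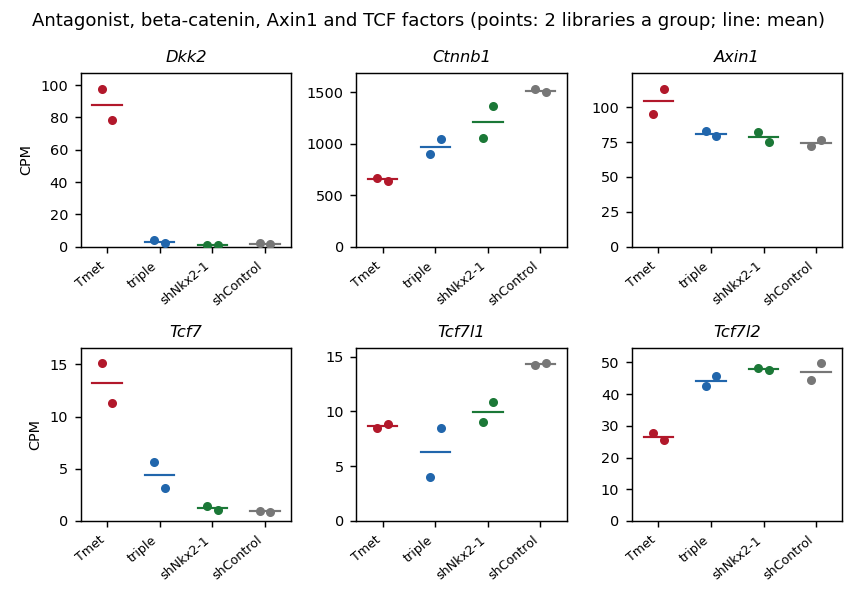
CPM of Dkk2, Ctnnb1, Axin1 and the 3 tested TCF factors in each library (points) with group means (lines), from Tmet at the left to shControl at the right. Dkk2 and Tcf7 are highest in Tmet, at 78.1 to 97.6 and 11.3 to 15.1 CPM, while Ctnnb1 is lowest there, at 639 to 671 CPM.

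Other genes of the pathway were read from 6 lists. Against shControl, the share of all tested genes called was 57.3% in Tmet, 24.4% in the triple knockdown and 3.55% in shNkx2-1. The 2 genes with the smallest p in a list are named for the comparisons of the triple knockdown and Tmet with shControl. Median log2 changes over the 6 lists were -0.27 to 0.59 in the triple knockdown and -0.57 to 1.77 in Tmet, where those of all tested genes were 0.004 and 0.024. In shNkx2-1 against shControl, 1 of 7 further antagonists (Tpbg), 3 of 16 reported targets (Tiam1, Ephb3 and Jag1) and 3 of 16 polarity genes (Daam1, Dok7 and Rhou) were called, all higher, and they are named because they were called there. The call of Dok7 there rests on 9 and 4 counts in shNkx2-1, against none in shControl. The call of Tiam1 was lost in 4 of the 8 leave-one-out fits and each of the other 6 calls in 6 of them. Of 7 tested genes for secretion and processing of ligands, in Tmet 4 rose and 2 fell (85.7% called), while 1 rose and 2 fell in the triple knockdown (42.9%). Among these 7, Sulf2, Gpc4 and Gpc6 are named because both libraries were over the filter's minimum in Tmet and in no other group. The Tmet count of this list and its median log2 change of 1.77 are therefore a description only. Wls, the carrier that brings Wnt proteins to the cell surface, fell in Tmet to 119 and 99 CPM, against 444 and 392 CPM in shControl (-1.94 ± 0.13, adjusted p = 1.09e-05). Gpc1, a heparan sulphate carrier that can hold Wnt ligands at the membrane, had 551 and 473 CPM in Tmet, 517 and 580 CPM in the triple knockdown and 145 and 157 CPM in shControl. It rose in both Tmet (1.77 ± 0.12, adjusted p = 1.37e-05) and the triple knockdown (1.86 ± 0.12, adjusted p = 7.56e-05). Apcdd1, a membrane inhibitor of Wnt signalling, had 10.8 and 11.7 CPM in the triple knockdown and 27.7 and 34.6 CPM in shControl (-1.47 ± 0.27, adjusted p = 0.00669). That call was lost on leaving out either triple knockdown library, and the change ran from -1.62 to -1.31 over the leave-one-out fits. In shNkx2-1 Apcdd1 was higher than in shControl, at 62.6 and 78.3 CPM, a change not called in the main fit.

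Of 21 tested genes of signal transduction and the destruction complex, in Tmet 4 rose and 8 fell (57.1% called), while 3 rose and 4 fell in the triple knockdown (33.3%). Frat2, a binding protein of Gsk3, had 9.02 and 8.46 CPM in Tmet, 11 and 10.1 CPM in the triple knockdown and 24.7 and 31.5 CPM in shControl, and it fell in Tmet (-1.68 ± 0.17, adjusted p = 9.94e-05) as well as in the triple knockdown (-1.41 ± 0.17, adjusted p = 9.66e-04). Ccdc88c fell in the triple knockdown by 1.07 ± 0.15 (adjusted p = 0.00223) and Dixdc1, a partner of Dishevelled and Axin, fell in Tmet by 3.04 ± 0.30 (adjusted p = 8.72e-05). Of 14 tested nuclear partners of beta-catenin, in Tmet none rose and 7 fell (50% called), while 1 rose and 2 fell in the triple knockdown (21.4%). Both shares were below that of all genes called in either direction. By direction, 29.2% of all tested genes were called higher and 28.1% lower in Tmet. In the triple knockdown these shares were 12.0% and 12.4%. Aes, a short relative of the Groucho co-repressors, had 265 and 226 CPM in Tmet, 405 and 424 CPM in the triple knockdown and 641 and 674 CPM in shControl, and fell by 1.42 ± 0.11 in Tmet (adjusted p = 2.56e-05) and, with the triple knockdown, by 0.67 ± 0.11 (adjusted p = 0.00382). Tle4, a Groucho co-repressor, had 0.164 and 1.86 CPM in Tmet and 37.5 and 37.7 CPM in shControl (-5.17 ± 0.57, adjusted p = 1.69e-04), with changes of -4.33 without Tmet replicate 1 and -7.78 without Tmet replicate 2. Tle2 fell in the triple knockdown (-1.60 ± 0.37, adjusted p = 0.0171), which was lost without any 1 of the 4 libraries compared.

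Of 7 tested further antagonists and regulators, in Tmet 3 rose and 1 fell (57.1% called), while 3 rose and none fell in the triple knockdown (42.9%). Tpbg, a membrane inhibitor of Lrp6, had 36.2 and 44.6 CPM in Tmet, 21.8 and 22.3 CPM in the triple knockdown, 24.2 and 25.7 CPM in shNkx2-1 and 11.1 and 13.6 CPM in shControl, and it rose in Tmet (1.71 ± 0.17, adjusted p = 8.20e-05), in the triple knockdown (0.84 ± 0.17, adjusted p = 0.00881) and in shNkx2-1 (1.02 ± 0.16, adjusted p = 0.0210). The last 2 calls of Tpbg were lost in 3 and in 6 of the 8 leave-one-out fits. Igfbp4, a carrier of insulin-like growth factors that can also bind Frizzled and Lrp6, rose in the triple knockdown by 1.60 ± 0.20 (adjusted p = 0.00127) and in Tmet by 0.81 ± 0.20 (adjusted p = 0.00888), the second lost without shControl replicate 1 (adjusted p = 0.0794).

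Of 16 tested genes often reported as Wnt targets, in Tmet 7 rose and 5 fell (75% called), while 4 rose and 2 fell in the triple knockdown (37.5%). Most of them have other known regulators. Fosl1, an AP-1 factor, had 135 and 243 CPM in Tmet, 35.9 and 47.3 CPM in the triple knockdown and 10.8 and 10.9 CPM in shControl, and it rose in Tmet (4.12 ± 0.31, adjusted p = 2.30e-05) as well as in the triple knockdown (1.94 ± 0.29, adjusted p = 0.00289). Tiam1, an activator of Rac, had 18.9 and 17.7 CPM in Tmet, 0.121 and 0.0641 CPM in the triple knockdown, 0.850 and 0.845 CPM in shNkx2-1 and 0.0667 and 0.155 CPM in shControl. It rose in Tmet against shControl (7.22 ± 0.36, adjusted p = 2.73e-06), or by 7.93 without shControl replicate 2. Msx1, a homeobox factor, fell in the triple knockdown to 0.422 and 0.641 CPM, against 4.47 and 5.26 CPM in shControl (-3.19 ± 0.42, adjusted p = 0.00153), and was higher in Tmet than in the triple knockdown (3.76 ± 0.42, adjusted p = 2.40e-04).

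Of 16 tested genes of planar polarity and alternative receptors, in Tmet 6 rose and 3 fell (56.2% called), while 5 rose and none fell in the triple knockdown (31.2%). Prickle1, a planar polarity component, had 0.219 and 0.201 CPM in Tmet, 12.3 and 13.3 CPM in the triple knockdown, 1.94 and 1.86 CPM in shNkx2-1 and 1.33 and 1.44 CPM in shControl. Its direction was opposite in the 2 groups, with a rise in the triple knockdown (3.20 ± 0.25, adjusted p = 1.43e-04), a fall in Tmet (-2.69 ± 0.34, adjusted p = 3.59e-04) and a called difference between Tmet and the triple knockdown (-5.88 ± 0.31, adjusted p = 4.56e-06). Dok7, an adaptor of the receptor kinase MuSK, had 13.4 and 14.6 CPM in the triple knockdown and no counts in shControl, a difference of at least 78.9-fold (adjusted p = 1.37e-04). It was over the filter's minimum of 0.581 CPM in the triple knockdown only, so its p-value is a description only. Ptk7, a pseudokinase co-receptor, had 92.1 and 57.3 CPM in Tmet, 8.44 and 7.11 CPM in the triple knockdown and 2.47 and 2.89 CPM in shControl, and Tmet rose by 4.79 ± 0.29 (adjusted p = 6.66e-06). Gpr124, which acts as a co-activator of Wnt7a and Wnt7b in mouse brain vessels, had 25.6 and 46.8 CPM in Tmet, 2.11 and 1.60 CPM in the triple knockdown and 2.73 and 2.43 CPM in shControl. It rose in Tmet by 3.81 ± 0.36 (adjusted p = 7.45e-05), and its change of -0.47 ± 0.40 in the triple knockdown, where the 2 ligands were highest, was not called (adjusted p = 0.442).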

How the data were processed

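The members and the gene lists were chosen with earlier results of these data known. The labels' protocols name TruSeq libraries, polyA selection and single-end sequencing of 45 nt. Bowtie 1.0.1, RSEM 1.2.12 and the build mm9 stand in the submitters' processing notes, and no source used here gives the gene annotation or the strand setting. The authors deposited estimated counts (RSEM expected counts; between 34.7% and 38.0% of values per library are fractional), which were rounded to whole numbers. RSEM divides reads among genes of similar sequence. All 8 libraries entered 1 edgeR 4.0.16 quasi-likelihood fit in R 4.3.3, with TMM factors, edgeR's filterByExpr (10 counts as the minimum and 15 in total), no covariate and 4 residual degrees of freedom. Tests were two-sided and adjusted by Benjamini-Hochberg over 13318 genes in each of 5 contrasts. Alternatives used other scaling factors and filters, DESeq2 1.42.0, limma-voom 3.58.1, a replicate block, only the libraries compared, and fits without 1 library or both Tmet libraries. Fits were also run on data simulated with the fit's own spread, with changes placed in well-counted genes only. That run cannot speak for low-count members or for duplicates that may be technical. Values are given in full for members called in at least 1 contrast whose highest group averaged at least 5 CPM (21 members), and as means ± SD for the 9 called members under it. Fold changes are log2 values ± SE from the fit. Where a group had no counts the fold is a bound from 3 counts per library, and where it had 1 to 3 counts a ratio with a 95% Clopper-Pearson counting interval. Such intervals and bounds hold for counting error alone, since reads without molecular identifiers are not independent molecules. Exon lengths and overlaps came from GENCODE M21, which is another build than mm9. Motif words were searched in RefSeq promoter windows of 300 bases.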

Additional observations from a re-analysis of the deposited data

How the results depend on the processing

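No tested member or named gene reversed a called direction under any alternative run. Against shControl, shNkx2-1 had 0 members called, 2 with DESeq2, and 4 with only the 4 libraries compared and without both Tmet libraries. Over the fits that left out 1 library the count ran from 0 to 4 there, the 4 being in each fit that left out 1 Tmet library. In the same fits the count ran from 7 to 14 for the triple knockdown against shControl (7 without shControl replicate 1, 8 without replicate 2, 13 with all), from 6 to 14 for the triple knockdown against shNkx2-1 (6 without shNkx2-1 replicate 2, 12 with all), from 21 to 27 for Tmet against shControl (24 with all) and from 18 to 26 for Tmet against the triple knockdown (25 with all). In both Tmet comparisons, the leave-one-out fit with the fewest members called also had the fewest of all genes called. The fit with the most members called there had the most of all genes called. All other settings kept each count of members within 1.5 times. Over all genes, the count called between shNkx2-1 and shControl lines was 473, against 908 with DESeq2, 1779 in a fit of those 2 groups alone, 2006 with the Tmet pair dropped, 294 with the replicate block and 0 (without shControl replicate 1) to 1998 (without Tmet replicate 2) on leaving out 1 library. Between triple knockdown and shControl lines it was 3243, against 5607 in a fit of those 2 groups alone, 5424 with the Tmet pair dropped and 1248 to 5459 on leaving out 1 library. Between triple knockdown and shNkx2-1 lines it was 2711, against 4518, 4958 and 1024 to 4994 in the same order of settings, and between Tmet and triple knockdown lines 6404, against 3962 to 7901 on leaving out 1 library.

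Replicate numbers pair no samples by the labels. Deviations from the group means of same-numbered libraries correlated across genes at 0.231 to 0.326 in the comparisons among Tnonmet groups. The correlation was -0.0557 for Tmet against shControl and -0.239 for Tmet against the triple knockdown. The main fit leaves the replicate number out. With the replicate number as a block, the member counts were 0 for shNkx2-1, 13 for the triple knockdown and 23 for Tmet against shControl, 12 for the triple knockdown against shNkx2-1 and 23 for Tmet against the triple knockdown. In shNkx2-1 against shControl the block left Nkx2-1 (adjusted p = 0.0619), Cdx2 (0.0629), Dok7 (0.0872), Ephb3 (0.0546) and Jag1 (0.0594) above the threshold. It brought Apcdd1 (0.0381), which was higher in shNkx2-1, under it. The calls of Sfrp4 in Tmet against shControl (0.0673) and of Axin1 (0.0575), Wnt4 (0.0713) and Tle2 (0.0545) in Tmet against the triple knockdown, and of Dixdc1 (0.0578) and Tle2 (0.0523) in the triple knockdown against shNkx2-1, also ended with it. With the numbers crossed between Tmet and the triple knockdown, a fit chosen after seeing the data, 24 members were called.

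Depth limits the 27 untested members and the low ligands and antagonists, where 1 library often decided a call.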
